A study of Homo sapiens with 12 samples.

Results

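The untreated growth of K562 cells in which BRCA2 was repressed together with 1 other gene was measured, partner by partner. K562 is a human chronic myelogenous leukemia line, here a line that expresses the CRISPR interference machinery, in which a sgRNA directs a catalytically dead Cas9 to a promoter and lowers transcription there. From a library that paired 1141 sgRNAs with one another in both orders, all constructs with a BRCA2 sgRNA in either position and a sgRNA of another gene in the other were taken. They were 4336 of 1301881 constructs and covered 542 partner genes of 543 genes in the library, with 2 sgRNAs per gene and thus 8 constructs per partner. The measured values that BRCA2 was chosen by are not recorded. Growth and drug response in these libraries were known when it was proposed, so its own growth change is a description and supports nothing. All partners were kept, and none was chosen by a value.

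Cultures of 2 screens, 2022 and 2023, were used, with 2 replicate cultures in each. Each culture was sampled at T0, on day 9 after transduction, and its vehicle-treated (DMSO) part, the reference arm, was sampled at the endpoint, on day 18 in 2022 and day 19 in 2023. All 8 libraries thus come from the same line under puromycin selection for the construct, and none of them had drug. The arms of the same cultures that received niraparib, a PARP inhibitor, enter only 1 alternative. Total depth ran from 187.2 to 460.7 megareads per library. The 8 constructs of a BRCA2 pair together held a median of 1667 to 2454.5 reads at T0 and 872 to 1975 at the endpoint, with a lowest sum of 187 at T0 and 37 at the endpoint. Knockdown was not measured in these data, so a small value cannot be told apart from a weak sgRNA, and K562 is 1 line.

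BRCA2 acts in homologous recombination at resected double-strand breaks and protects stalled replication forks, with PALB2 linking it to BRCA1. Cells without it repair breaks by homologous recombination poorly and are left with end joining, including the error-prone pathway that uses DNA polymerase theta, encoded by POLQ. The known dependence of BRCA2-deficient cells on PARP activity is the reason they are treated with PARP inhibitors, and inhibitors of polymerase theta rest on their dependence on that enzyme.

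Among the partners, ZAR1L shares its promoter region with BRCA2. It is related to the oocyte factor ZAR1 and starts 145 bases from BRCA2 on the other strand of chromosome 13. Of the window from 250 bases before to 50 bases after the BRCA2 start in RefSeq (GRCh38.p14, chr13:32315258-32315557, plus strand), 244 bases also lie in the same window of ZAR1L. This window is shown, 5′ to 3′, because by their names the sgRNAs of both genes lie within 210 bases of one another, and the capitals mark the shared bases.

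BRCA2 promoter window: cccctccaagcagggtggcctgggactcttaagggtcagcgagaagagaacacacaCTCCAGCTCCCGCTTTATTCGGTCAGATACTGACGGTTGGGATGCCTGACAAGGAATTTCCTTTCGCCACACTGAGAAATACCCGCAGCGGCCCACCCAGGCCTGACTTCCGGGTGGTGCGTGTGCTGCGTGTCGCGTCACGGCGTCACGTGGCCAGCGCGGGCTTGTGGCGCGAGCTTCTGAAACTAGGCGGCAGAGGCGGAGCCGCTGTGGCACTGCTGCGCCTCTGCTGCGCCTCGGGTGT

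The sgRNAs carry a strand and a position in their names, of a build that is not given in the sources used here, so they were not placed on this window. By their names the BRCA2 sgRNAs lie 77 bases apart, on the plus strand at position 32889673 (called the first below) and on the minus strand at 32889750 (the second). Both ZAR1L sgRNAs lie on the minus strand, 123 and 133 bases from the first BRCA2 sgRNA and 200 and 210 bases from the second.

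BRCA2 knockdown on its own lowered growth. The growth change is the log2 ratio of reads at the endpoint over T0, set to 0 for the 3025 constructs with 2 non-targeting sgRNAs, which match no gene. Over its 220 constructs with a non-targeting sgRNA, BRCA2 stood at -2.10 in 2022 replicate 1, -1.05 in 2022 replicate 2, and -1.08 and -1.06 in 2023 replicates 1 and 2. The first culture was far below the other 3, which lay close together. The mean was -1.32 ± 0.52 (SD, n = 4), with an adjusted p of 0.00248 in edgeR over all genes, of which 78.6% were lower and 3.68% higher, and -1.06 ± 0.02 (n = 3, adjusted p = 2.39e-07 in edgeR) without 2022 replicate 1. The first BRCA2 sgRNA was depleted more than the second in every culture. It stood at -3.13, -1.52, -1.54 and -1.46, and the second at -1.48, -0.69, -0.71 and -0.73, in the same order of cultures. Constructs with both BRCA2 sgRNAs stood at -2.0 ± 0.68 (SD, n = 4).

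2022 replicate 1 stood apart from the other 3 cultures beyond BRCA2. Of 543 genes, BRCA2 deviated most in it (-1.03 from the mean of the other cultures), followed by BARD1 (-0.96), the partner of BRCA1, RAD54L (-0.92), a translocase of strand exchange, PARP1 (-0.78) and HUS1 (-0.61), and SHMT2 deviated most upward (0.64). Over the 543 genes, the SD of such deviations was 0.18 in this culture and 0.0844 to 0.102 in the others. The difference of this culture from 2022 replicate 2 in untreated growth had a Pearson r of 0.66 over 543 genes with the niraparib response measured in 2023, while the difference between the 2023 replicates had an r of 0.076 with the response measured in 2022. Genes share libraries and are not replicates, so these r describe the libraries, and what set the culture apart was not tested. Values below are of all 4 cultures unless stated, and the main ones that move are also given without 2022 replicate 1.

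For each partner the growth change of the pair, relative to BRCA2 with non-targeting sgRNAs, was set against the growth change of the same partner with non-targeting sgRNAs. The difference between these is called the interaction, on the log2 scale. It is 0 where the knockdowns add up, below 0 where the pair was more depleted than their sum and above 0 where it was less depleted. Of 542 partners, 43 were lower and 283 higher past an adjusted p of 0.05 (edgeR, quasi-likelihood test, Benjamini-Hochberg over all 147153 gene pairs and 14661 control pairs), and 216 did not pass. The shares were 7.93% and 52.2%. Of all gene pairs of the library, 3.16% were lower and 39.3% higher. Without 2022 replicate 1, 51 were lower and 245 higher, against 2.84% and 35.5% of all gene pairs. Of the 43, 38 were lower again, and of the 283, 243 were higher again. The interaction in 2022 replicate 1 was above that of the other 3 cultures for 375 of the 542 partners, and below it for 36. Pairs of BRCA2 with 27 mock genes, each made of 2 non-targeting sgRNAs, had interactions from -0.15 to 0.10, with 2 lower and 1 higher. Within this range lay 13 of the 43 lower and 4 of the 283 higher partners, and of those named below SFR1, RNASEH2A, ETAA1, C12orf66, GPS2, LIN9, H2AFX and TRAIP. DESeq2, which gave 31 lower and 261 higher, did not call XRCC1, RAD17, RFC5, OBFC1, CTC1, RAD50, SFR1, GPS2 and H2AFX as lower. Nor did it call DNMT1, XRCC2, BARD1, RBBP8, BRIP1, RNF8, XRCC5, FANCB, FANCL, RPA1 and RPA2 as higher.

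**Figure D1:**
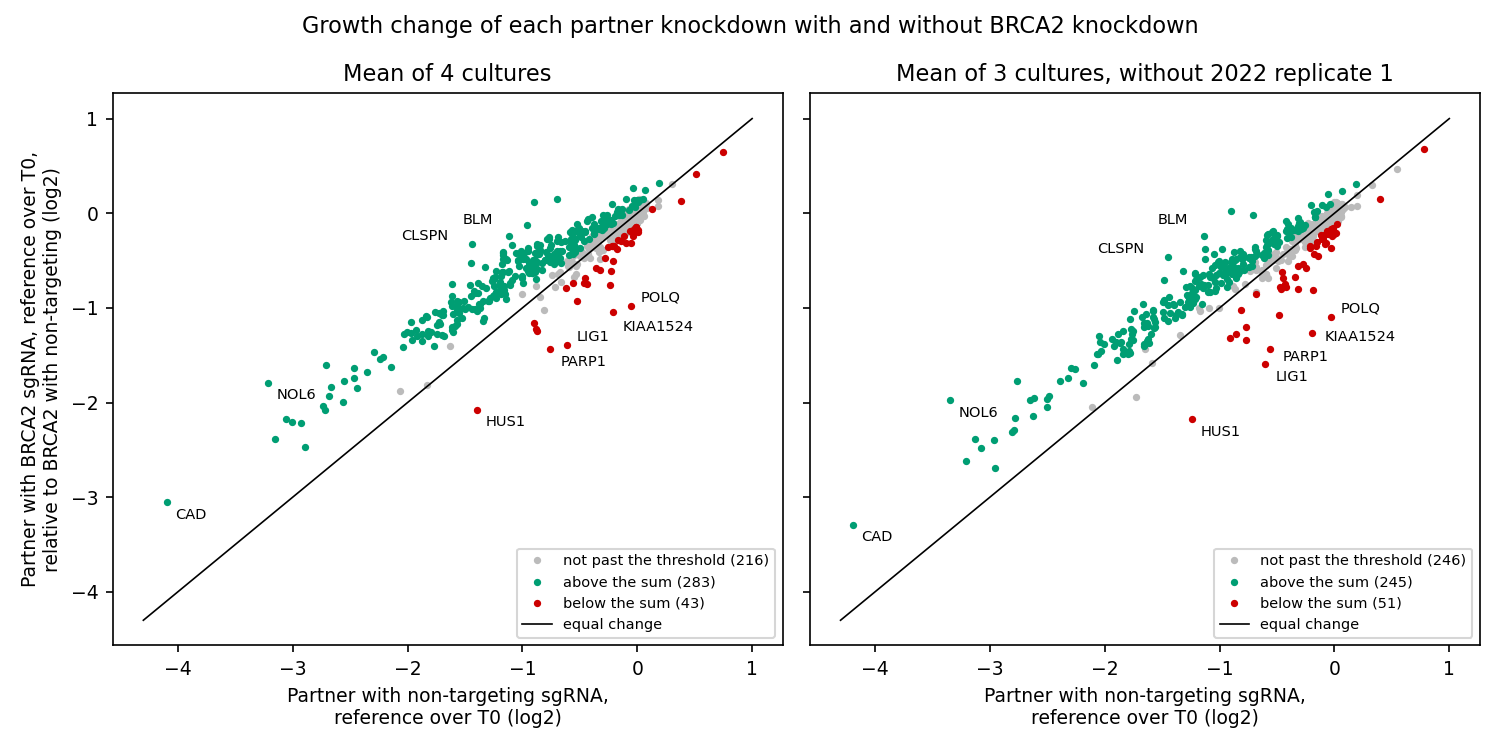
Growth change of 542 partners with a BRCA2 sgRNA, relative to BRCA2 with non-targeting sgRNAs (vertical, log2), against that with a non-targeting sgRNA (horizontal, log2), as means of 4 cultures (left) and of 3 (right). Each point is a partner coloured by its edgeR call in those cultures, and the line marks equal changes: points that are strongly depleted on the horizontal axis lie above the line, while POLQ, KIAA1524, LIG1, PARP1 and HUS1 lie well below it.

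Most of the high interactions followed the partner's own growth change. Of 26 partners with a growth change below -2, 25 were higher, with a median interaction of 0.74, and of 120 partners between -2 and -1, 116 were higher, with a median of 0.54. Of 138 partners above -0.1, 12 were higher and 15 lower, with a median of -0.01. The Pearson r of the interaction with the partner's growth change was -0.78 over 542 partners (-0.71 without 2022 replicate 1), where both share the counts of the partner with non-targeting sgRNAs. The median was 0.14 for BRCA2 and 0.07 for all gene pairs. With that median set to 0, 106 partners were lower and 231 higher, against 17.6% and 29.9% of all gene pairs.

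The expected pair growth was therefore also taken from a curve of degree 2, fitted in each culture through the partners of each gene on their own growth changes. Near 0 the BRCA2 curve had a slope of 0.60 in 2022 replicate 2, 0.70 and 0.67 in 2023, and 0.30 in 2022 replicate 1. A slope of 1 would be the sum. Here and below, a value against the curve is the mean of the pair's departure from the BRCA2 curve and its departure from the partner's own curve. It is thus not a departure from the BRCA2 curve alone. By this value 145 partners were lower and 17 higher in limma, where 5.32% and 4.55% of all gene pairs were called. Without 2022 replicate 1 the counts were 119 and 11, and the shares of all gene pairs 4.06% and 3.1%. Of the 43 partners below the sum, 33 were below the curve too. Of the 283 above the sum, 15 were above the curve, 75 were below it past the threshold, and 197 had a value below 0. A call above the sum thus held against the curve for few partners, and each group below is given with both. The calls of SFR1, NMNAT1, NDNL2 and MCM5 below the curve, and of FANCF, TOP3A, CHD4, MYEOV2 and ZNF131 above it, did not hold without 2022 replicate 1.

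The largest negative interactions were those of POLQ and KIAA1524 (median -0.88 beside 0.07 for all gene pairs). Both were lower, where 7.93% of all BRCA2 partners were. POLQ and KIAA1524 were the 2 measured members of a list named polymerase theta end joining. That list was chosen with earlier results of these data known, so its count is a description. POLQ on its own had almost no growth change, at -0.13, -0.03, -0.05 and -0.02 in the 4 cultures (2022 replicates 1 and 2, then 2023 replicates 1 and 2). With BRCA2 sgRNAs it stood at -0.64, -1.05, -1.13 and -1.10 relative to BRCA2 alone. Its interaction was -0.50, -1.02, -1.07 and -1.09, with a mean of -0.92 ± 0.28 (SD, n = 4; edgeR adjusted p = 9.94e-15) and of -1.06 ± 0.04 without 2022 replicate 1. Every culture was below 0, and 2022 replicate 1 was nearest to it. Among the 542 pairs that POLQ formed in the library, the one with BRCA2 was the lowest. All 4 combinations of sgRNAs were negative, at -1.46 and -1.64 with the first BRCA2 sgRNA and -0.53 and -0.84 with the second. The POLQ and BRCA2 pair had 1988 reads at T0 and 738 at the endpoint in 2022 replicate 1, and 1340 and 458 in 2023 replicate 1.

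KIAA1524, now named CIP2A, tethers broken chromosomes through mitosis together with TOPBP1. Its interaction was -0.12, -0.86, -1.48 and -0.86 in the 4 cultures, with a mean of -0.83 ± 0.55 (SD, n = 4; edgeR adjusted p = 1.27e-07) and -1.07 ± 0.36 without 2022 replicate 1. It was weak in 2022 replicate 1 and about equal in 2022 replicate 2 and 2023 replicate 2. Its growth change without BRCA2 sgRNAs was -0.22 ± 0.04.

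In base excision and single-strand break repair, 2 of 5 members were lower, 1 was higher and 2 did not pass (median -0.05). The shares of all BRCA2 partners were 7.93% lower and 52.2% higher. LIG1, the ligase that joins Okazaki fragments and also seals repair patches, had interactions of -0.12, -0.86, -1.29 and -0.83. The mean was -0.77 ± 0.48 (SD, n = 4; edgeR adjusted p = 1.77e-08) and -0.99 ± 0.25 without 2022 replicate 1. Its growth change alone was steady, at -0.64, -0.60, -0.60 and -0.62. XRCC1, the scaffold of single-strand break repair, stood at 0.18, -0.45, -0.55 and -0.42, positive in 2022 replicate 1 and negative in the other 3 (mean -0.31 ± 0.33, SD, n = 4; edgeR adjusted p = 0.00011; -0.48 ± 0.07 without that culture). The pair with BRCA2 was the second lowest of 542 pairs for both LIG1 and XRCC1. The higher member was ASCC3, a helicase for alkylated DNA, with 0.62 ± 0.28, and -0.21 against the curve. LIG3 (-0.05) and POLB (0.02) did not pass.

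In the list of PARP enzymes and ADP-ribose turnover, 2 of 8 were lower and 1 higher, beside 7.93% and 52.2% of all BRCA2 partners. The list median was -0.08. PARP1, the main sensor of strand breaks, had interactions of -0.12, -0.84, -0.80 and -0.97. The mean was -0.68 ± 0.38 (SD, n = 4; edgeR adjusted p = 1.87e-10) and -0.87 ± 0.09 without 2022 replicate 1. Relative to BRCA2 alone the PARP1 pair stood at -1.46, -1.40, -1.38 and -1.51, so it was steady over the 4 cultures. PARP1 with non-targeting sgRNAs was not, at -1.35, -0.56, -0.58 and -0.54. Both it and BRCA2 alone (-2.10), each of which is subtracted, were lowest in 2022 replicate 1. Why the interaction was weakest there was not tested. DNPH1, which removes an abnormal nucleotide from the precursor pool, was lower at -0.17 ± 0.14. PARP2 did not pass, and neither did PARG, which removes ADP-ribose chains. NMNAT1, which makes NAD+, stood at 0.36 ± 0.11 above the sum and -0.20 against the curve. CHD1L, a chromatin remodeler that binds ADP-ribose chains, was lower once 2022 replicate 1 was left out (-0.11).

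RNase H2 cuts ribonucleotides out of DNA. All 3 of its subunits were lower, where 7.93% of all BRCA2 partners were. RNASEH2C stood at -0.11, -0.50, -0.51 and -0.23 (mean -0.34 ± 0.20, SD, n = 4; edgeR adjusted p = 6.76e-06), RNASEH2B at -0.20 ± 0.14 and the catalytic RNASEH2A at -0.13 ± 0.07. The subunits also differed without BRCA2 sgRNAs, with growth changes of -0.88, -0.28 and -0.21. All 3 remained lower against the curve and without 2022 replicate 1, where 26.8% and 9.41% of all BRCA2 partners were lower. With the second BRCA2 sgRNA alone, RNASEH2C stood at -0.12 and did not pass. The RNASEH2A value rested on 1 of its own sgRNAs, at -0.38 and -0.26 with the 2 BRCA2 sgRNAs, while its other sgRNA stood at 0.11 and 0.01. TOP1, the topoisomerase that also acts at ribonucleotides and was placed in the same list, was higher at 0.62 ± 0.16 and had -0.13 against the curve (limma adjusted p = 0.0759).

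Among 14 members of the ATR checkpoint and 9-1-1 clamp list, 4 were lower and 4 higher (median 0.04). Of all BRCA2 partners 7.93% were lower and 52.2% higher. The 9-1-1 clamp of RAD9A, HUS1 and RAD1 marks stalled forks for the kinase ATR, and RAD17 loads it. HUS1 had interactions of 0.08, -0.75, -0.95 and -1.10, with a mean of -0.68 ± 0.53 (SD, n = 4; edgeR adjusted p = 7.4e-08). RAD1 stood at -0.20, -0.61, -0.51 and -0.75 (mean -0.52 ± 0.23; edgeR adjusted p = 4.64e-09) and RAD17 at 0.23, -0.42, -0.58 and -0.72 (mean -0.37 ± 0.42; edgeR adjusted p = 0.000713). All were lowest in 2023 replicate 2, and 2022 replicate 1 lay above the other cultures. Without it the means were -0.94 ± 0.18, -0.63 ± 0.12 and -0.57 ± 0.15, TOPBP1, an activator of ATR, was lower too (-0.21), and the list median was -0.04. RAD17 leaned on 1 of its own sgRNAs, at -0.98 and -0.52 with the first and second BRCA2 sgRNA. Its other sgRNA stood at -0.24 and 0.27.

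RAD9A did not pass against the sum, at 0.69, -0.29, -0.28 and -0.06 (mean 0.01 ± 0.46, SD, n = 4). Its growth change alone was the strongest of the clamp, at -1.83 ± 0.22, where the sum and the curve lie far apart, and against the curve it stood at -0.78 (limma adjusted p = 1.09e-07). ETAA1, an activator of ATR outside the clamp, was lower at -0.14 ± 0.12 and did not pass against the curve (-0.05). CLSPN, the adaptor that brings the kinase CHK1 to ATR, was among the highest of all partners, at 1.5, 0.79, 1.00 and 1.17 (mean 1.12 ± 0.30; edgeR adjusted p = 9.62e-12). Its growth change of -1.44 ± 0.13 became -0.33 ± 0.29 relative to BRCA2. Against the curve CLSPN stood at 0.27 (limma adjusted p = 0.0629). CHEK1 (0.23), WEE1 (0.13) and PKMYT1 (0.43), kinases that hold back mitosis, were higher, and each had a value below 0 against the curve, with CHEK1 and WEE1 not past the threshold without 2022 replicate 1 and PKMYT1 at 0.29.

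The clamp loader RFC, of which RFC1 opens the sliding clamp PCNA and RFC2 to RFC5 serve the 9-1-1 clamp as well, moved in both directions. RFC1 stood at -0.28 ± 0.18, RFC5 at -0.26 ± 0.37 and RFC2 at -0.22 ± 0.07, all lower. RFC5 stood at -0.42 ± 0.22 without 2022 replicate 1. RFC4 (0.45, -0.38, -0.53 and -0.39) did not pass with 4 cultures and was lower without 2022 replicate 1 (mean -0.44 ± 0.09; edgeR adjusted p = 1.14e-06). RFC3, with a growth change of -1.87, stood at 0.52 ± 0.38 above the sum (0.35 ± 0.18 without 2022 replicate 1) and -0.33 against the curve. Against the curve all 5 subunits were lower, from -0.30 for RFC2 to -0.69 for RFC5. Of all BRCA2 partners 26.8% were lower against the curve and 7.93% against the sum.

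CST, the complex of CTC1, STN1 (here OBFC1) and TEN1 that brings DNA polymerase alpha to resected ends and telomeres, was counted in the 53BP1, RIF1 and shieldin list. OBFC1 stood at 0.15, -0.59, -0.66 and -0.51 (mean -0.40 ± 0.37, SD, n = 4; edgeR adjusted p = 1.25e-05) and CTC1 at 0.14, -0.35, -0.26 and -0.38 (mean -0.21 ± 0.24; edgeR adjusted p = 0.00155). Both were above 0 in 2022 replicate 1 and below it in the other 3 cultures, with means of -0.59 ± 0.07 and -0.33 ± 0.06 in these. Neither passed in DESeq2 with all 4. TEN1 was on the other side in every culture, at 0.20, 0.13, 0.15 and 0.14, and passed as higher (edgeR adjusted p = 0.00285), but stood at 0.03 against the curve. Of the 14 members, the other 3 that passed were higher: HELB, a helicase that limits resection, at 0.24 ± 0.13, DYNLL1, which binds 53BP1, at 0.17 ± 0.16, and RNF8, a ubiquitin ligase at breaks, at 0.16 ± 0.19. HELB was the only 1 of these 3 above the curve (0.21), and DYNLL1 and RNF8 did not pass without 2022 replicate 1. The 8 that did not pass, with 53BP1 itself and its effectors RIF1, SHLD1 and SHLD2 among them, lay between -0.10 and 0.08. The list median was 0.03, and of all BRCA2 partners 52.2% were higher and 7.93% lower. Without 2022 replicate 1, 5 of the 14 were lower and 2 higher (median 0.01), beside 9.41% and 45.2% of all BRCA2 partners. Among the lower ones, 53BP1 (TP53BP1, -0.17), its partner PAXIP1 (-0.14) and SHLD1 (C20orf196, -0.12) joined OBFC1 and CTC1.

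**Figure D2:**
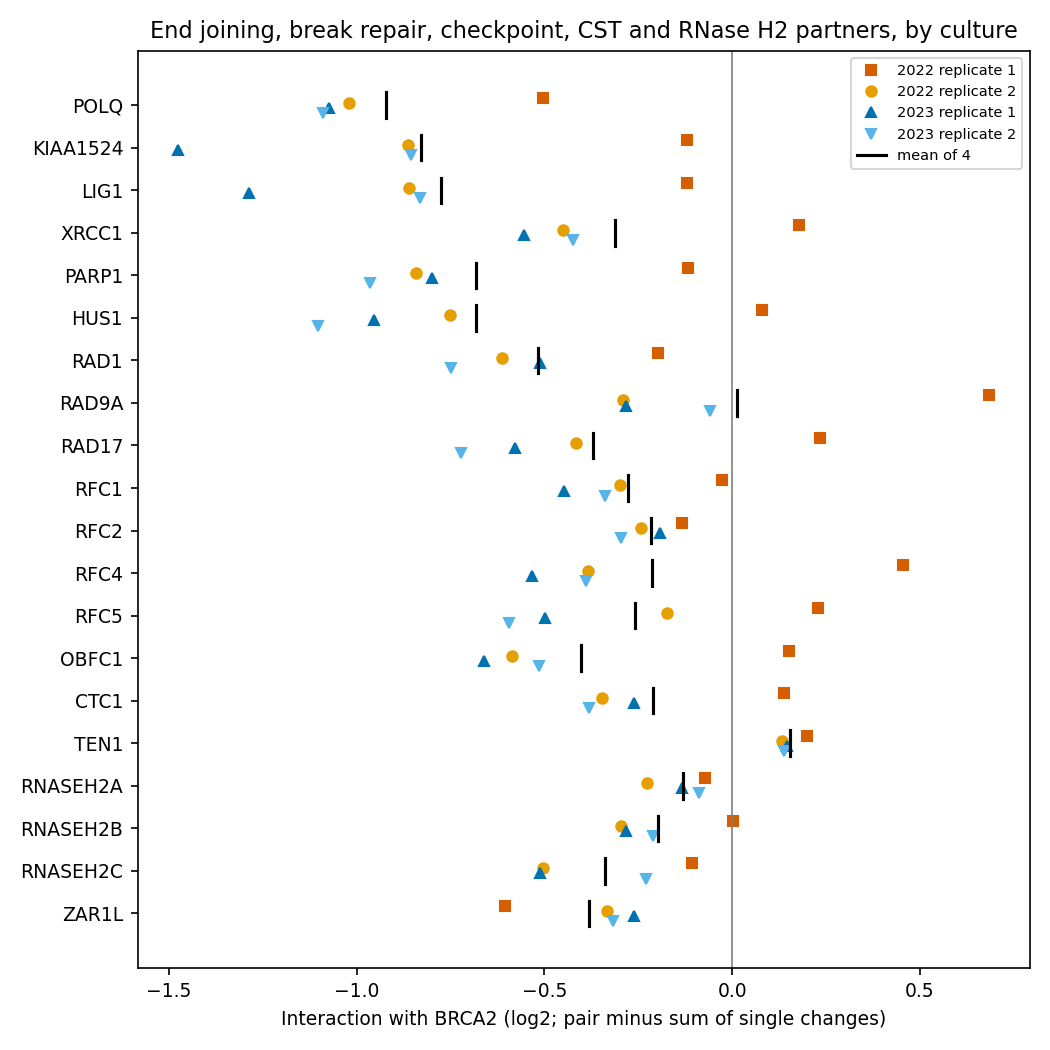
Interaction with BRCA2 (log2, horizontal) of 20 partners from the end joining, break repair, checkpoint, clamp loader, CST and RNase H2 groups, with ZAR1L. Symbols are the 4 cultures and the black bar their mean: in most rows 2022 replicate 1 lies to the right of the other 3, while ZAR1L has its lowest value there.

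In the list of strand exchange genes, in which BRCA2 itself acts, 4 of 17 partners were higher and 2 lower (median 0.03, and -0.03 without 2022 replicate 1). Over all BRCA2 partners the shares were 52.2% and 7.93%. RAD51C, whose product works with XRCC3 in strand exchange, stood at 0.72, 0.50, 0.67 and 0.69, with a mean of 0.64 ± 0.10 (SD, n = 4; edgeR adjusted p = 6.07e-14), which left -0.49 ± 0.13 of its own growth change of -1.13 ± 0.18. Every culture was well above 0. XRCC3 stood at 0.48 ± 0.11, PALB2 at 0.27 ± 0.17 and XRCC2 at 0.15 ± 0.15. PALB2 stood at 1.09 and 0.41 with 1 of its own sgRNAs and at 0.17 and 0.10 with the other (first and second BRCA2 sgRNA). RAD51C, XRCC3 and PALB2 were higher without 2022 replicate 1 as well, and XRCC2 did not pass. Against the curve none of the 4 was higher (0.12 for RAD51C), while RAD51C (0.22) was higher against the curve once 2022 replicate 1 was left out. XRCC2 (-0.09) and XRCC3 (-0.06) had values below 0 against the curve and did not pass. Among the 542 pairs that RAD51C formed, the one with BRCA2 was at place 117 from the highest.

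The lower members were SWI5 and SFR1, which form a complex of strand exchange. SWI5 stood at -0.08, -0.11, -0.30 and -0.33 (mean -0.21 ± 0.13; edgeR adjusted p = 0.00207) and SFR1 at -0.12 ± 0.10 (edgeR adjusted p = 0.0355). The interaction of SWI5 rested on the second BRCA2 sgRNA (-0.37), with 0.08 for the first. The other 11, RAD52, RAD54L and RAD51B among them, did not pass and lay between -0.10 and 0.09.

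In the list of BRCA1, BARD1 and end resection, 5 of 11 were higher and 1 lower (median 0.04, and -0.04 without 2022 replicate 1). Of all BRCA2 partners 52.2% were higher and 7.93% lower, so against the sum and with all cultures the list lay near that background. Its calls leaned on 2022 replicate 1. BARD1 stood at 0.62, 0.04, 0.03 and 0.22 and RBBP8, which starts resection, at 0.63, -0.01, 0.02 and 0.09. Neither passed without that culture. BRIP1 (0.11) and AUNIP (0.14) likewise did not, and DNA2, a resection nuclease, did (0.34 ± 0.12), but stood at -0.25 against the curve. BRCA1 did not pass, at 0.29, -0.08, -0.01 and -0.03 (mean 0.04 ± 0.17), and stood at -0.26 against the curve (limma adjusted p = 0.000137). By its own sgRNAs, BRCA1 stood at -0.15 and -0.05 with 1 and at 0.51 and 0.11 with the other (first and second BRCA2 sgRNA). Alone, these BRCA1 sgRNAs had growth changes of -0.11 and -0.91. BARD1 stood at -0.30 against the curve. RAD50, of the MRE11 nuclease complex, was lower at -0.17 ± 0.34, with 0.33 in 2022 replicate 1 and -0.35, -0.41 and -0.27 in the others, and did not pass in DESeq2. Without that culture 5 of the 11 were lower, NBN of the same complex with -0.33 ± 0.13.

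Of 16 Fanconi anemia genes, whose products detect and unhook DNA crosslinks, 10 were higher and none was lower (median 0.16). Of all 542 BRCA2 partners 52.2% were higher, with a median of 0.14, and of all gene pairs 39.3%, with a median of 0.07, so the list lay near the BRCA2 background. The 6 others lay between -0.01 and 0.13, and at an unadjusted p under 0.05 in edgeR 12 were higher and none was lower (8 and 0 in DESeq2). The highest were C19orf40 (FAAP24) at 0.48, 0.35, 0.45 and 0.27 (mean 0.38 ± 0.10, SD, n = 4; edgeR adjusted p = 2.23e-09) and STRA13 (CENPX) at 0.38, 0.33, 0.26 and 0.28 (mean 0.31 ± 0.05; edgeR adjusted p = 2.12e-08), both DNA-binding partners of FANCM. WDR48 (0.27), FANCB (0.26), FANCM (0.25), FANCL (0.19), FANCA (0.18), FANCF (0.17), FANCG (0.15) and FANCI (0.13) followed. Without 2022 replicate 1, FANCL, FANCF, FANCG and FANCI did not pass, FANCE did, and FANCB stood at 0.15. Against the curve only C19orf40 (0.18), STRA13 (0.19) and FANCF (0.12) were higher, and FANCF was not once 2022 replicate 1 was left out. WDR48 (-0.07) and FANCI (-0.01) had values below 0 against it.

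The complex that dissolves double Holliday junctions, of the helicase BLM with TOP3A, RMI1 and RMI2, gave the 4 higher members among 9 of the nucleases and dissolution list (median -0.01). Among all BRCA2 partners 52.2% were higher. BLM had a growth change of -1.07, -1.01, -1.22 and -1.17 alone and of -0.26, -0.25, -0.22 and -0.25 relative to BRCA2. Its interaction was 0.81, 0.76, 1.01 and 0.92, with a mean of 0.87 ± 0.11 (SD, n = 4; edgeR adjusted p = 8.09e-18), and 0.90 ± 0.12 without 2022 replicate 1. RMI1 stood at 0.35 ± 0.08, TOP3A at 0.19 ± 0.12 and RMI2 at 0.16 ± 0.09. The RMI1 value leaned on 1 of its own sgRNAs, at 0.68 and 0.66 with the first and second BRCA2 sgRNA. Its other sgRNA stood at 0.19 and -0.05. Against the curve BLM had the highest value among the 17 partners past the threshold (0.34; limma adjusted p = 0.000723), RMI1 (0.18) and TOP3A (0.16) were higher too, and RMI2 (0.08) did not pass. The nucleases of the list did not pass and lay between -0.09 and -0.01.

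**Figure D3:**
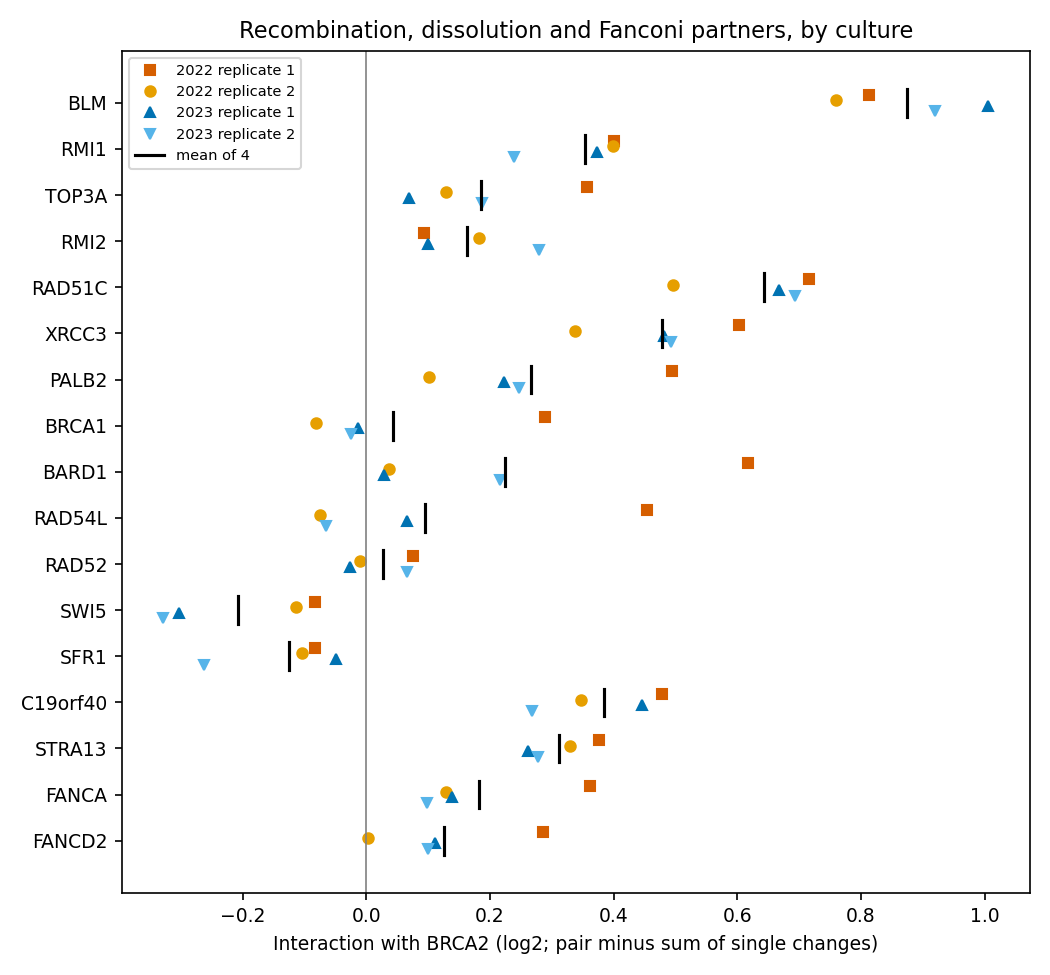
Interaction with BRCA2 (log2, horizontal) of 17 partners from dissolution, strand exchange, BRCA1, SWI5-SFR1 and the Fanconi anemia group. Symbols are the 4 cultures and the black bar their mean: BLM and RAD51C are well above 0 in every culture, while BARD1, BRCA1 and RAD54L are highest in 2022 replicate 1.

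Replisome genes, which copy DNA, were the largest list, with 14 of 26 higher and 3 lower (median 0.20), a share of higher members near the 52.2% of all BRCA2 partners. Without 2022 replicate 1 the counts were 11 higher and 5 lower, beside 45.2% and 9.41% of all BRCA2 partners, and the median was 0.13. The higher ones were subunits of the MCM helicase (MCM2 0.72, MCM3 0.37, MCM4 0.62, MCM5 0.29 and MCM6 0.37), MCM10 (0.69), the licensing factor CDC6 (0.17), primase and DNA polymerase alpha (PRIM1 0.93, POLA1 0.64 and PRIM2 0.51), RFC3, and the RPA single-strand binding complex (RPA2 0.55, RPA3 0.24 and RPA1 0.23). Their own growth changes ran from -2.93 to -0.31. Against the curve 11 of the 14 had values below 0 and 7 were lower past the threshold, MCM6 with -0.42 and MCM2 with -0.38. Among all 283 higher partners these counts were 197 and 75. RPA1 was not steady, at 0.40, 0.55, 0.22 and -0.23, and with RPA3 and CDC6 it did not pass without 2022 replicate 1, where RPA2 stood at 0.34.

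The remaining lists held few calls, where 52.2% of all BRCA2 partners were higher and 7.93% lower. In the SMC5-SMC6 and cohesin list, 3 of 6 were higher: NDNL2 (NSMCE3) at 0.83 ± 0.32, SMC6 at 0.90, 0.62, 0.76 and 0.74 (mean 0.76 ± 0.12; edgeR adjusted p = 2.9e-17), and WAPAL, which releases cohesin, at 0.36 ± 0.19. NDNL2 was below the curve (-0.19). SMC6 had 0.11 against the curve, which did not pass, and 0.16 without 2022 replicate 1, which did. Among 6 genes of non-homologous end joining, only XRCC5 (Ku80) passed, at 0.83, 0.08, 0.04 and 0.52. It did not pass without 2022 replicate 1 and was lower against the curve (-0.33). LIG4, XRCC4, PRKDC, XRCC6 and NHEJ1 lay between -0.10 and 0.11.

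In fork reversal and fork protection, 2 of 11 were higher, beside 52.2% of all BRCA2 partners. They were WDHD1 (0.54 ± 0.28) and CHD4 (0.41 ± 0.15), and only CHD4 was above the curve (0.12). PAXIP1, which is also in this list, was lower without 2022 replicate 1. None of 4 members of the BRCA1-A complex passed in edgeR, BABAM1 being farthest from 0 at -0.07 ± 0.05, and none of 3 genes of post-replication repair, MAD2L2 being farthest at 0.05 ± 0.08. In both lists the count in either direction was also 0 at an unadjusted p under 0.05 and in DESeq2. In all, the lists held 151 partners and 21 of the 43 lower ones, where 7.93% of all BRCA2 partners were lower. The lists were chosen with earlier results of these data known, so this count is a description.

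ZAR1L, whose promoter window is shown above, had the sixth lowest interaction of those negative in every culture. It stood at -0.61, -0.33, -0.26 and -0.32, with a mean of -0.38 ± 0.15 (SD, n = 4; edgeR adjusted p = 1.16e-06) and -0.30 ± 0.04 without 2022 replicate 1. Unlike most repair partners it was lowest in 2022 replicate 1. Its growth change with non-targeting sgRNAs, -0.47, -0.14, -0.16 and -0.14, was also lowest there, as that of BRCA2 was. The interaction rested on the second BRCA2 sgRNA, at -0.63, with 0.03 for the first, although the first lies nearer to both ZAR1L sgRNAs. Whether ZAR1L sgRNAs lower BRCA2 transcription was not measured.

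The other partners among the 12 lowest that were below 0 in every culture belonged to none of the lists. RHOXF2, a homeobox gene, stood at -0.29 ± 0.08, CENPF, a kinetochore protein, at -0.28 ± 0.09, FOXM1, a transcription factor of mitotic genes, at -0.26 ± 0.18, and CBL, a ubiquitin ligase for receptor kinases, at -0.25 ± 0.09. For FOXM1 the pair with BRCA2 was the third lowest it formed. CBL, whose knockdown raised growth by 0.38, did not pass against the curve (-0.10).

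The 12 highest interactions were held by strongly depleted knockdowns, with growth changes from -4.09 to -0.70. NOL6, a factor of ribosomal RNA processing, had 1.57, 1.41, 1.80 and 0.90 (mean 1.42 ± 0.38, SD, n = 4; edgeR adjusted p = 2.77e-08). Then came CLSPN, the importin IPO13 (1.11 ± 0.25), the pyrimidine enzyme CAD (1.04 ± 0.60), the mitotic kinase PLK1 (1.03 ± 0.30), PRIM1 (0.93 ± 0.33), GEMIN2 of the SMN complex (0.88 ± 0.29), BLM, POLR1B of RNA polymerase I (0.86 ± 0.32), RBM8A of the exon junction complex (0.85 ± 0.35), the mitochondrial RNA-binding protein PTCD1 (0.83 ± 0.37) and the nuclear pore protein NUP62 (0.83 ± 0.52). BLM alone of these 12 was above the curve past the threshold, and GEMIN2 was below it (-0.26). Some of these values rested on few reads. Per combination of sgRNAs, the lowest count at T0 was 41 reads for NOL6, 35 for PLK1, 34 for PRIM1 and 16 for NUP62. With the filter of more than 50 reads per construct in every T0 library, PLK1 stood at 1.47 and PRIM1 at 0.70. NOL6 had no value with this filter. In the ranking of each gene's own 542 pairs from the highest, BRCA2 was at places 67 to 199 for these 12, whereas it was at places 1 to 19 from the lowest for the 12 lowest.

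The slowest and fastest growing pairs followed the partner too. Pair growth, now without subtracting BRCA2, ran from -4.37 to -0.68, with a median of -1.65. It was lowest with CAD (-4.37), DNMT1, the maintenance DNA methyltransferase (-3.79), the centromere chaperone HJURP (-3.71), MCM2 (-3.54) and DCTN3 of dynactin (-3.53). Of these, CAD did not pass against the curve (-0.07), and the other 4 were below it, DNMT1 with -0.48 and HJURP with -0.42. DNMT1 stood at 0.42 above the sum and at 0.27 without 2022 replicate 1. It was highest with C12orf66 (KICS2), which restrains mTORC1 (-0.68), the corepressor subunit GPS2 (-0.91), MYEOV2 of the COP9 signalosome (-1.0), the Polycomb protein MTF2 (-1.01) and the zinc finger protein ZNF131 (-1.06). All 542 pairs had a pair growth below 0. C12orf66 (-0.10) and GPS2 (-0.09) were below the sum and above the curve (0.19 each), MYEOV2 (0.13) and ZNF131 (0.31) were above the sum, and MTF2 (0.01) did not pass. Without 2022 replicate 1, in either screen alone and in DESeq2, GPS2 did not pass against the sum.

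The BRCA2 sgRNAs gave like patterns of unlike size. Over 542 partners, the interactions of the first and the second sgRNA had a Pearson r of 0.81, where they share the partner's counts with non-targeting sgRNAs. Of the 43 lower partners, 39 were below 0 with both sgRNAs, and 34 were lower with the first, the more depleted one. POLQ stood at -1.55 with the first and -0.69 with the second, PARP1 at -1.20 and -0.44, LIG1 at -1.02 and -0.66, and KIAA1524 at -1.22 and -0.78. With the first sgRNA alone 41 partners were lower and 209 higher, and with the second 21 and 267. All 43 lower partners were below 0 with BRCA2 in the first position and in the second.

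**Figure D4:**
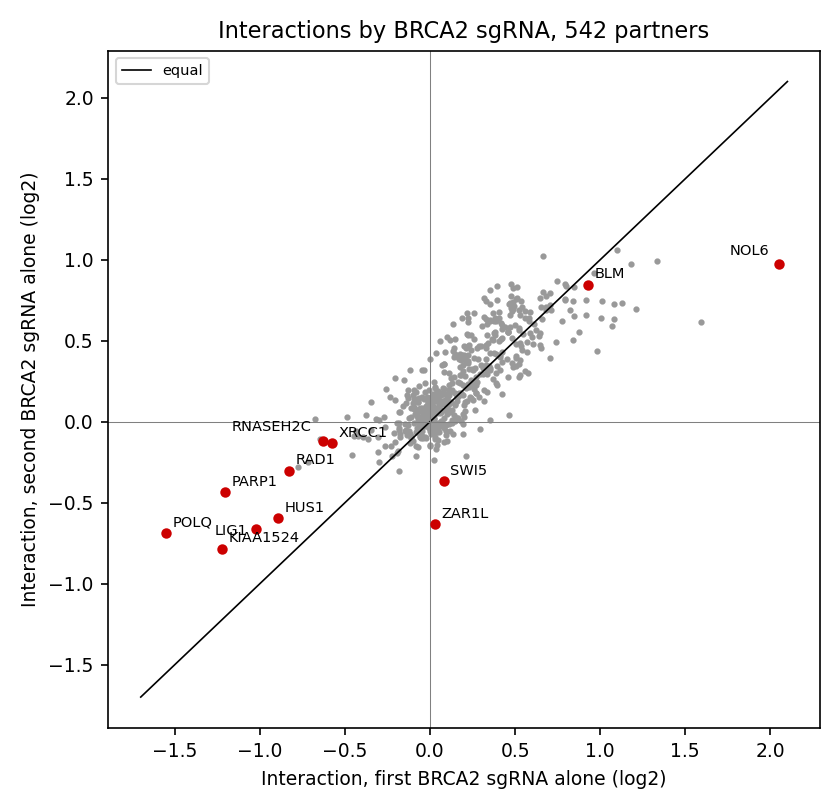
Interaction of each of 542 partners with the second BRCA2 sgRNA alone (vertical, log2) against that with the first (horizontal, log2), each fitted in edgeR over 4 cultures. Red points are named: POLQ, PARP1, KIAA1524, LIG1, HUS1 and RAD1 are more negative with the first sgRNA, whereas ZAR1L and SWI5 are negative with the second alone.

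The genes with interaction profiles most like that of BRCA2 over 541 shared partners, by Pearson r as a description, were RAD51C (0.88), DCTN5 (0.87), PALB2 (0.87), NUDC (0.86) and FH (0.85). When 2022 replicate 1 was left out, PALB2 came first (0.83) and WDR48 (0.77) took the place of FH. Each of these profiles follows the partner's own growth change, and all share the same libraries. With values against the curve they were ZAR1L (0.62), PALB2 (0.60), NUDC (0.51), DCTN5 (0.50) and RAD51C (0.49), and the same 5 came first without 2022 replicate 1.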

How the data were processed

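The deposited tables held raw read counts per construct, made by the authors from PCR-amplified sgRNA cassettes, per the labels' protocols. The submitters' processing notes name Bowtie2 2.3.4.1 without its role. The authors' deposited tables of log2 phenotypes were not used. Groups came from the labels. Counts were summed over the 8 constructs of each of 147153 gene pairs, and over 14661 pairs with mock genes, which are non-targeting sgRNAs taken 2 at a time. In edgeR 4.0.16 (R 4.3.3) an offset held the expected sum: both genes with non-targeting sgRNAs, minus constructs with 2 non-targeting sgRNAs. The design had a block for each culture and 1 effect of arm (8 libraries, 3 residual degrees of freedom, biological coefficient of variation 4.64%). The pairing rests on the labels, which state that the T0 library and both arms came from 1 culture. Replicate differences at T0 and at the endpoint had a Pearson r of 0.052 in 2022 and 0.034 in 2023 over gene pairs. The fit was tested on simulated data.

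Reads had no molecular identifiers, so read sums overstate the precision. Values per culture were computed from the same sums, and SD is over cultures. Alternatives were limma 3.58.1 with 1 or 10 added, DESeq2 1.42.0, and more than 50 reads per construct in every T0 library. Others were each screen, sgRNA and position alone, the niraparib libraries added, another centring and the arm effect within screens. No replicate block, each culture left out, and a curve of degree 2 were also used. The curve without 2022 replicate 1 was added after seeing the data.

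Partners were named where they were among the 12 lowest or 12 highest past the threshold with 1 sign in all 4 cultures, were members of a list past it, were farthest from 0 in a list with none, or were among the 5 lowest or highest in pair growth. BRCA1, RAD9A, NBN, RFC4, members named by range and those called only without 2022 replicate 1 were added after their values were seen. The members and the 16 lists were chosen with earlier results of these data known. Some partners are not reported here and are not counted in the lists. Promoter sequences are those of RefSeq.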

Additional observations from a re-analysis of the deposited data

Results flagged for a closer look

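A culture was marked where its distance to the nearest of the other 3, divided by the range over 4 cultures, was above Dixon's 95% critical value, which chance gives in about 1 in 20 groups. This held for 50 of 542 partners, and for 38 of these the culture was 2022 replicate 1. BRCA2 with non-targeting sgRNAs was marked by its value of -2.10 in 2022 replicate 1, and the POLQ interaction by -0.50 in the same culture. In that culture GEMIN2 (1.31), HJURP (1.31), DCTN3 (1.38), POLA1 (1.07), RBBP8 (0.63), RFC4 (0.45) and FANCA (0.36) stood above their other cultures. CAD was marked by its low 0.15 in 2022 replicate 2 and RMI1 by its 0.24 in 2023 replicate 2.

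The interaction was lower in 2023 than in 2022 past the threshold for 3 of 542 partners and higher for none (edgeR, test of the difference between the screens). Named partners among them were DNMT1, with a difference of -0.60 (edgeR adjusted p = 0.0303), and RFC5, with -0.56 (edgeR adjusted p = 0.0176). The screens also differed in the length of growth, and 2022 replicate 1 was in 1 of them.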

How the results depend on the processing

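The count of lower partners, 43 with all cultures, lay between 31 and 51 when 1 culture was left out, and that of higher partners, 283, between 245 and 282. It was 23 lower with 2022 alone, 25 with BRCA2 in the first position alone, 21 with the second BRCA2 sgRNA alone and 106 with the median of gene pairs set to 0. Against the curve 145 were lower and 17 higher, and 119 and 11 when 2022 replicate 1 was also left out. With no replicate block, 41 were lower and 281 higher. DESeq2 gave 31 and 261. BRCA2 with non-targeting sgRNAs lay between -1.41 and -1.06 when 1 culture was left out and stood at -1.57 (edgeR adjusted p = 0.0564) with 2022 alone and at -1.28 with no replicate block. The curve without 2022 replicate 1 was added after the data were seen.

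For 110 named partners, 1735 of 2199 values under alternatives kept direction and side of the threshold, 336 kept the direction and lost the threshold, 21 gained it and 107 changed sign. Most sign changes came with the curve, for which the slopes fitted to BRCA2 near 0 were 0.30 to 0.70, where 1 would be the sum. Values with the curve and all cultures, then without 2022 replicate 1, were as follows for partners not below the sum: RAD9A -0.78 and -0.83, DNMT1 -0.48 and -0.49, MCM6 -0.42 and -0.36, HJURP -0.42 and -0.43, MCM2 -0.38 and -0.35, RPA3 -0.34 and -0.35, RFC3 -0.33 and -0.37, XRCC5 -0.33 and -0.38, RBBP4 -0.31 and -0.35, BARD1 -0.30 and -0.24, DCTN3 -0.30 and -0.33, MCM4 -0.28 and -0.24, GEMIN2 -0.26 and -0.24, BRCA1 -0.26 and -0.23, DNA2 -0.25 and -0.21, MCM3 -0.24 and -0.21. ASCC3 stood at -0.21 and -0.23, LIN52 -0.21 and -0.25, RPA2 -0.21 and -0.30, NMNAT1 -0.20 and -0.14, NDNL2 -0.19 and -0.17, RPA1 -0.18 and -0.16, MCM5 -0.18 and -0.15, RBBP8 -0.15 and -0.19, CHEK1 -0.14 and -0.18, TOP1 -0.13 and -0.088, WEE1 -0.13 and -0.093, PTCD1 -0.091 and -0.10, XRCC2 -0.088 and -0.060, MCM10 -0.084 and -0.080. Nearer to 0 were CAD -0.067 and -0.027, WDR48 -0.066 and -0.048, XRCC3 -0.061 and -0.010, POLA1 -0.047 and -0.086, MAD2L2 -0.027 and -0.035, PKMYT1 -0.011 and -0.092, and WAPAL -0.00086 and -0.023. FANCI (-0.013) changed sign with all cultures, and POLR1B (-0.013), CDC6 (-0.019) and PRIM2 (-0.021) without 2022 replicate 1. C12orf66 (0.19 and 0.16) and GPS2 (0.19 and 0.18), below the sum, rose above the curve.

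Other sign changes were as follows, and the cause was not tested. With the first sgRNA alone they were ZAR1L 0.029, SWI5 0.081, MTF2 -0.074, RBBP8 -0.035, RPA1 -0.045, MAD2L2 -0.043 and RAD9A -0.049, and with the second RFC4 0.014. With 2022 alone they were RFC5 0.018 and RFC4 0.027, and with 2023 alone RAD9A -0.17, BRCA1 -0.019, RPA1 -0.0029 and MTF2 -0.0019. Leaving out 1 culture at a time gave RAD9A from -0.22 to 0.14, BRCA1 from -0.042 to 0.087 and MTF2 from -0.032 to 0.045, each lowest without 2022 replicate 1. With the median set to 0 they were MTF2 -0.070, RAD9A -0.057, BRCA1 -0.039 and MAD2L2 -0.025, with the first position alone RAD9A -0.014, with the second MAD2L2 -0.058 and BRCA1 -0.016, and with 10 added in limma MTF2 -0.0061. Depth limits the pairs with the fewest reads, 37 at an endpoint.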

Other observations

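Outside the lists, 22 partners were lower. The following were picked after their values were seen. Of the MuvB complex, which represses or activates cell cycle genes, LIN54 stood at -0.15, -0.21, -0.20 and -0.27 (mean -0.21 ± 0.05, SD, n = 4; edgeR adjusted p = 2.62e-05), LIN37 at -0.21 ± 0.13 and LIN9 at -0.12 ± 0.08. The other 2 measured subunits were higher, LIN52 at 0.75 ± 0.38 and RBBP4 at 0.32 ± 0.29, and below the curve. RBBP4 did not pass without 2022 replicate 1.

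H2AFX, the histone variant phosphorylated around breaks, stood at 0.02, -0.19, -0.18 and -0.10 (mean -0.11 ± 0.10; edgeR adjusted p = 0.0307), and TRAIP, a ubiquitin ligase that unloads the replicative helicase, at -0.14 ± 0.09 (edgeR adjusted p = 0.0143). Both were lower without 2022 replicate 1 and against the curve.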
